A study of Mus musculus with 4 samples.

Results

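The genes described here carry a cell through mitosis: the kinases and cyclins of mitotic entry, the chromosomal passenger complex, the spindle checkpoint, the kinetochore, the anaphase machinery, spindle motors and the proteins of cytokinesis. They were taken by gene symbol from a list of 40, of which 39 were found among the 19505 genes named on the array, and Ccnb1 is not analysed here. The measurements come from 4 Affymetrix arrays of mouse T cells, 2 from cells grown under a Tc1 cytokine condition and 2 from cells grown under a Tc9 condition, and the stated aim was to compare expression between them. Tc1 is the name of the CD8 T cell state that secretes interferon gamma, and Tc9 of the one that secretes interleukin 9. The array titles number each group 1 and 2. The sources used here do not give strain, age, the cytokines used or the time in culture, and no label says that the numbered arrays came from separate cultures, so the p-values measure only the spread between these samples, which may be technical.

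As background, activated CD8 T cells divide rapidly, and mitotic transcripts build up late in each cycle. Cdk1 with a B-type cyclin starts mitosis, the kinetochore joins chromosomes to spindle microtubules, the checkpoint holds cells until every chromosome is attached, and the anaphase-promoting complex then ends mitosis by marking securin and cyclin B for destruction. Many of these genes share a promoter layout, a cell cycle homology region (CHR) near the start bound by the MuvB core of the DREAM and B-MYB complexes, with upstream CCAAT boxes bound by NF-Y.

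That layout was visible in the promoters of the members. RefSeq windows of 300 bases on GRCm38.p6, from 250 before to 50 after the annotated start, were at hand for 32 of the 39 measured genes. The CHR core TTTGAA, searched on both strands, was in at least 1 window of 24 of these genes (75%), against 17.8% of the 15691 tested genes with a window. CCAAT on either strand was in 24 (75%), against 42.2%, and occurred at least 2 times in 16 (50%), against 14.4%. Both motifs together were in 21 (65.6%), against 7.26%. The variant TTCGAA, which reads the same on both strands, was in 4 (12.5%), against 2.14%. None of these motifs contains another. Windows of the same gene overlap where 2 starts lie close together, as for Bub3, Ect2 and Prc1. In 23 of the 24 genes a TTTGAA began between 100 bases before and 50 after the start. These are matches of letters and not shown binding sites.

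The 7 stretches shown are the 100 bases before the start for members with a single window and a TTTGAA wholly inside that stretch, because they let the spacing of the motifs be read directly. Each runs 5′ to 3′ along the gene's strand, from RefSeq on GRCm38.p6. Capitals mark TTTGAA and CCAAT or, where the match is on the other strand, TTCAAA and ATTGG.
Cdk1 (chr10:69352913-69353012, minus strand): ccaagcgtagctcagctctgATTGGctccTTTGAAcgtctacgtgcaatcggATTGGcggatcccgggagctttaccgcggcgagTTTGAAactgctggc
Kif11 (chr19:37376282-37376381, plus strand): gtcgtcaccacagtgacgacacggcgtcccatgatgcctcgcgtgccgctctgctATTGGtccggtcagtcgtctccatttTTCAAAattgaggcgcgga
Ube2c (chr2:164769829-164769928, plus strand): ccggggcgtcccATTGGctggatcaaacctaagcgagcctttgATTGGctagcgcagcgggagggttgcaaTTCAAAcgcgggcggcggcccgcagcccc
Top2a (chr11:99024190-99024289, minus strand): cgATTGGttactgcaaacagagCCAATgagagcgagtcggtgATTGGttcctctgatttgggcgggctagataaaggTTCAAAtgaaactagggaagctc
Cdc20 (chr4:118437344-118437443, minus strand): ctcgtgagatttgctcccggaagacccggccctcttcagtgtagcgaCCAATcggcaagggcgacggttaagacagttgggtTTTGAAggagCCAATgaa
Espl1 (chr15:102296193-102296292, plus strand): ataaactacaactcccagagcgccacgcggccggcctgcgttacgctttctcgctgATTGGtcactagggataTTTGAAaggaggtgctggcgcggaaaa
Mki67 (chr7:135716380-135716479, minus strand): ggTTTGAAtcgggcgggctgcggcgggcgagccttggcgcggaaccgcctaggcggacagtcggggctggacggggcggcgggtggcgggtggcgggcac
In 6 of these stretches a CCAAT or ATTGG stands upstream of the TTTGAA or TTCAAA nearest the start. In Mki67 the CCAAT matches nearest to its TTTGAA lie further upstream than the bases shown.

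**Figure D1:**
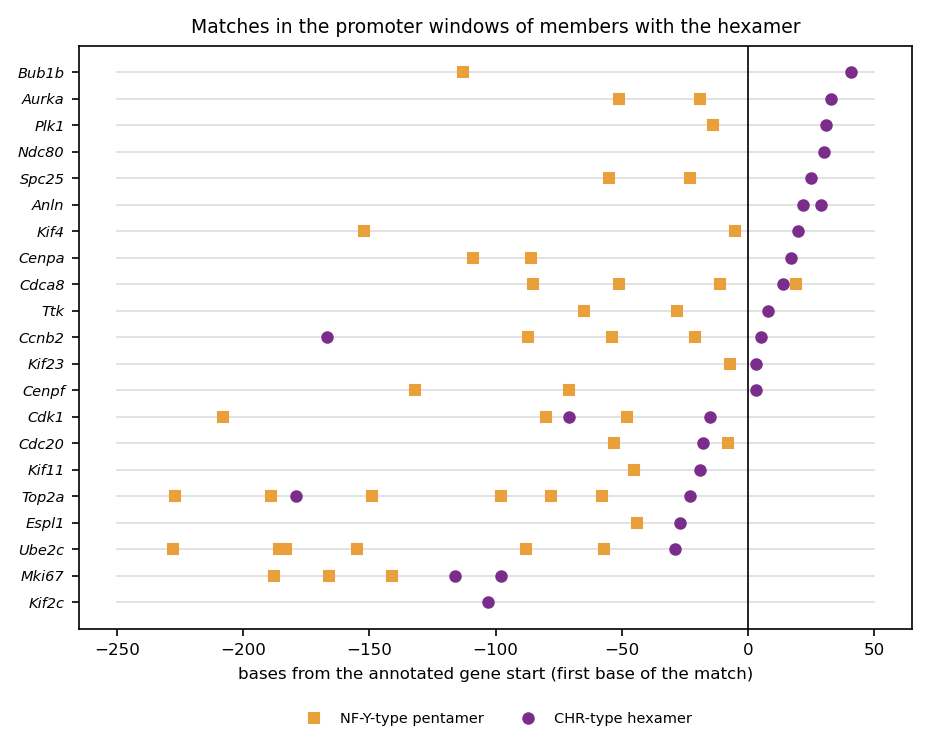
Position of the TTTGAA hexamer (circles) and the CCAAT pentamer (squares), on either strand, in bases from the annotated start, for the 21 measured members with a single promoter window that holds the hexamer. Circles gather around the start, and squares lie mostly to the left of it.

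The arrays differed by number. Deposited intensities had a median of 37.1 (Tc1) and 37.9 (Tc9) for number 1 and of 57.3 (Tc1) and 57.1 (Tc9) for number 2, so values were quantile normalized, and every intensity below is on that scale unless called deposited. Log2 changes are Tc9 minus Tc1 of the intensity plus 16, which understates changes of dim genes. Of the 39 genes, 20 lay above the 95th percentile of the negative control probe sets on all 4 arrays, 10 on some and 9 on none (Cdc25b, Cdc25c, Bub1b, Cenpe, Cenpf, Spc25, Kif4, Prc1 and Anln), signals too dim for a reliable change. The CD8 T cell genes Cd8a, Cd8b1, Cd3e, Cd3d and Cd3g were above it on all 4 arrays, with summed intensities of 17253 and 18195 in Tc1 and 18250 and 18959 in Tc9. Cd4 was below it on all 4. Of 23 measured markers of other cell types (B, myeloid, NK, CD4 and gamma-delta T cells, basophils and mast cells, platelets and erythroid cells), 21 were below it on all 4 arrays. The summed intensity of the 23 was 2024 and 2060 in Tc1 and 1288 and 1286 in Tc9, a difference carried by Eomes, also an effector CD8 gene.

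Mitotic transcripts were measured lower in Tc9 cells almost throughout, with a median difference of 23.8%, and with no single gene past the adjusted threshold. The log2 change was negative for 36 of the 39 genes, against 50.7% of all genes, and its median was -0.39 (quartiles -0.49 and -0.24), against -0.0027 over all genes. The median was -0.41 between the arrays numbered 1 and -0.35 between those numbered 2, and 32 genes were lower in Tc9 in both numbers, against 32% of all genes. Both Tc9 arrays lay below both Tc1 arrays for 25 genes, against 15.1% of all genes, and above them for 1, against 14%. RNA of a whole culture cannot tell fewer dividing cells from less transcript in each dividing cell.

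By limma, 0 of the 39 passed an adjusted p of 0.05 in either direction, where 0.564% of all genes passed, 0.179% as lower and 0.385% as higher. At an unadjusted p under 0.05, 12 were lower, against 2.34% of all genes, and 0 were higher, against 2.94%. The 12 became 0 on deposited values, 5 with median centring, 5 without the Tc1 array numbered 2 and 7 without the Tc9 array numbered 1. With the array number as a block, 23 passed the adjusted threshold as lower, against 7.37% of all genes, and 0 as higher, against 6.34%. Many of all genes are dim. Among the 6354 above the negative control level on all 4 arrays, 4.2% were lower at an unadjusted p under 0.05. Of them, 15.9% passed as lower with the block, and 20% had both Tc9 arrays below both Tc1 arrays. Only 20 of the 39 members are that bright, and the counts of members here are over all 39. The block removes a difference that the 2 arrays of a number share, leaves 1 residual degree of freedom, and gives every gene of like intensity the same spread. Its prior degrees of freedom were infinite, so its p-values, however small, hold nothing of a gene's own spread. No label says that arrays of a number share a culture. Each setting that left out 1 array leaves 1 array in a group, and its prior degrees of freedom were also infinite. The p-values of those settings, like those with the block, hold nothing of a gene's own spread.

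**Figure D2:**
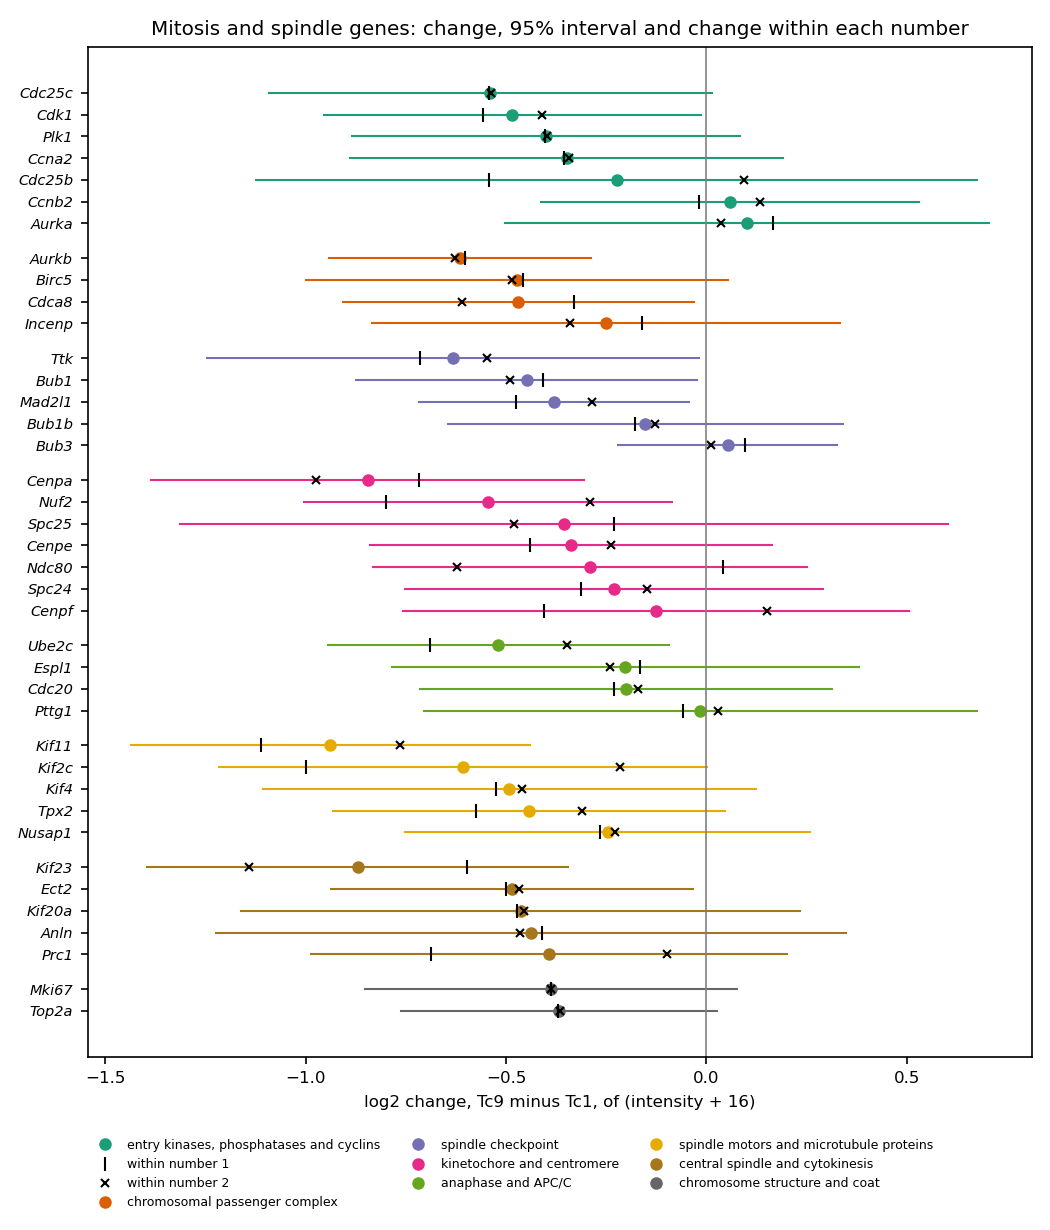
Log2 change (Tc9 minus Tc1, of the intensity plus 16) of each of the 39 genes, grouped by role, with the limma 95% interval as a line, the change between the arrays numbered 1 as a bar and between those numbered 2 as a cross. 36 of the 39 points lie left of 0, and only Aurka, Ccnb2 and Bub3 lie right of it.

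Among the kinases, phosphatases and cyclins of mitotic entry, 5 of 7 measured genes had a negative change. Cdk1, the kinase that drives entry, measured 327 and 266 in Tc1 and 217 and 196 in Tc9. Its 2 groups did not overlap, and its log2 change was -0.48 ± 0.20 (SE; 95% interval -0.95 to -0.01; limma adjusted p = 0.902, with the block 0.00101). Plk1, the polo-like kinase of spindle assembly and mitotic exit, measured 326 and 268 in Tc1 and 243 and 199 in Tc9, so that each Tc9 array was below its Tc1 partner by nearly the same factor (-0.40 and -0.40 in the numbers). Cdc25c, a phosphatase that activates Cdk1, measured 48.1 and 61.9 in Tc1 and 28.0 and 37.7 in Tc9, all of them under the negative control level. The log2 changes of Ccna2, cyclin A2 of S phase and early mitosis, and of Cdc25b, a second Cdk1-activating phosphatase, were -0.35 and -0.22.

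Aurka and Ccnb2 had positive changes. Aurka, the centrosomal Aurora kinase, measured 194 and 148 in Tc1 and 219 and 152 in Tc9. Its groups overlapped, with a log2 change of 0.10 (95% interval -0.50 to 0.71). Its signals on both arrays numbered 2 lay below the negative control level. Ccnb2, a B-type cyclin, measured 191 and 173 in Tc1 and 189 and 192 in Tc9, also overlapping, with a change of 0.06 (95% interval -0.41 to 0.53). Both intervals hold the median of the list, -0.39, whereas those with the block (-0.17 to 0.37 for Aurka, -0.21 to 0.32 for Ccnb2) do not, and the difference from the other members was not tested.

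In the chromosomal passenger complex, which corrects faulty attachments and later guides cytokinesis, all 4 genes had a negative change in both numbers. Aurkb, its kinase, measured 941 and 925 in Tc1 and 615 and 593 in Tc9. The arrays within each group differed by far less than the groups, and the change was -0.62 ± 0.14 (95% interval -0.94 to -0.29; limma adjusted p = 0.207, with the block 2.89e-12). Cdca8, borealin, measured 291 and 329 in Tc1 and 228 and 210 in Tc9 (-0.47), without overlap. Birc5, survivin, had a change of -0.47 (-0.46 and -0.48 in the numbers), and Incenp, the scaffold, one of -0.25.

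Of the 5 spindle checkpoint genes, 4 had a negative change and the groups of none overlapped. Among all genes, 15.1% had both Tc9 arrays below both Tc1 arrays and 14% had them above. Mad2l1, the checkpoint protein that inhibits Cdc20, measured 1090 and 1113 in Tc1 and 780 and 909 in Tc9, a log2 change of -0.38 ± 0.14 (limma adjusted p = 0.785, with the block 9.67e-06). Bub1, a kinetochore kinase of the checkpoint, measured 339 and 392 in Tc1 and 252 and 274 in Tc9 (-0.45). Ttk, the kinase MPS1 that starts the signal, measured 144 and 179 in Tc1 and 81.7 and 117 in Tc9 (-0.63), with only 1 of its 4 arrays above the negative control level. Every Tc9 array of these 3 genes was below every Tc1 array.

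Bub3, the partner that brings Bub1 to kinetochores, measured 2094 and 2104 in Tc1 and 2240 and 2120 in Tc9. It was the only member with both Tc9 arrays above both Tc1 arrays, by 0.05 on the log2 scale (95% interval -0.22 to 0.33), and with median centring its change was -0.0002. Bub1b, BubR1 of the checkpoint complex, had a change of -0.15.

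All 7 kinetochore and centromere genes had a negative change, 5 of them in both numbers. Cenpa, the histone H3 variant that marks centromeres, measured 455 and 378 in Tc1 and 270 and 184 in Tc9, a change of -0.85 ± 0.23 (95% interval -1.39 to -0.31; limma adjusted p = 0.354, with the block 3.06e-12). Nuf2, of the Ndc80 complex that grips microtubules, measured 438 and 392 in Tc1 and 245 and 318 in Tc9 (-0.54). Neither gene's groups overlapped. The other 3 subunits of that complex had overlapping groups, with changes of -0.29 for Ndc80 (0.04 and -0.62 in the numbers), -0.23 for Spc24 and -0.36 for Spc25. Cenpe, a kinetochore motor, had a change of -0.34, and Cenpf, a kinetochore protein of late G2, one of -0.13 with opposite signs in the numbers (-0.41 and 0.15).

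The 4 genes of anaphase showed the smallest median change of the 8 roles, at -0.20. Ube2c, the ubiquitin-conjugating enzyme of the anaphase-promoting complex, measured 411 and 360 in Tc1 and 249 and 279 in Tc9, without overlap (-0.52 ± 0.18; limma adjusted p = 0.675, with the block 5.79e-05). Cdc20, the activator of that complex, had a change of -0.20, Espl1, separase, also -0.20, and Pttg1, securin, -0.01 (95% interval -0.71 to 0.68).

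Spindle motors and microtubule proteins showed the largest, at a median of -0.49, close to -0.47 for the passenger complex and -0.46 for cytokinesis. Differences between the roles were not tested. Both Tc9 arrays lay below both Tc1 arrays for all 5 genes, against 15.1% of all genes. Only 1 of the 5 was above the negative control level on all 4 arrays. Kif11, the Eg5 motor that pushes spindle poles apart, had the most negative change of the 39. It measured 299 and 240 in Tc1 and 130 and 135 in Tc9, a change of -0.94 ± 0.21 (95% interval -1.44 to -0.44; limma adjusted p = 0.207, with the block 1.12e-10). Both of its Tc9 signals, and neither Tc1 signal, lay below the negative control level, so the size of that difference is uncertain.

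Kif2c, a kinesin that takes microtubules apart, measured 244 and 212 in Tc1 and 114 and 181 in Tc9 (-0.61). Its difference was larger between the arrays numbered 1 (-0.999) than between those numbered 2 (-0.22). Its signal on the Tc9 array numbered 1 lay below the negative control level, so the size of that larger difference is uncertain. Tpx2, which activates Aurora A on the spindle, measured 270 and 216 in Tc1 and 176 and 171 in Tc9 (-0.44). Both were lower in each Tc9 array than in either Tc1 array. Kif4, a chromosome-bound kinesin, and Nusap1, a microtubule bundler, had changes of -0.49 and -0.25.

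The 5 genes of the central spindle and cytokinesis all had a negative change in both numbers. Kif23, the centralspindlin motor, measured 226 and 286 in Tc1 and 144 and 121 in Tc9, a change of -0.87 ± 0.22 (95% interval -1.40 to -0.34; limma adjusted p = 0.299, with the block 4.90e-09), with both Tc9 signals below the negative control level. Ect2, the exchange factor that activates RhoA at the cleavage site, measured 440 and 534 in Tc1 and 306 and 382 in Tc9 (-0.48). The groups of both genes were separate. Prc1, a microtubule crosslinker of the midzone, and Kif20a, a kinesin of the central spindle, had changes of -0.39 and -0.46. Anln, anillin of the contractile ring, had one of -0.44.

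The 2 genes of chromosome structure were alike. Top2a, the topoisomerase that untangles sister chromatids, measured 379 and 378 in Tc1 and 290 and 290 in Tc9, a change of -0.37 that was the same in both numbers to 2 decimals. Mki67, the Ki-67 coat protein used to mark dividing cells, measured 532 and 679 in Tc1 and 403 and 515 in Tc9 (-0.39, also in both numbers). Neither gene's groups overlapped. Top2a had limma adjusted p = 1.00 (with the block 0.00813), and Mki67 also 1.00 (with the block 0.000468).

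**Figure D3:**
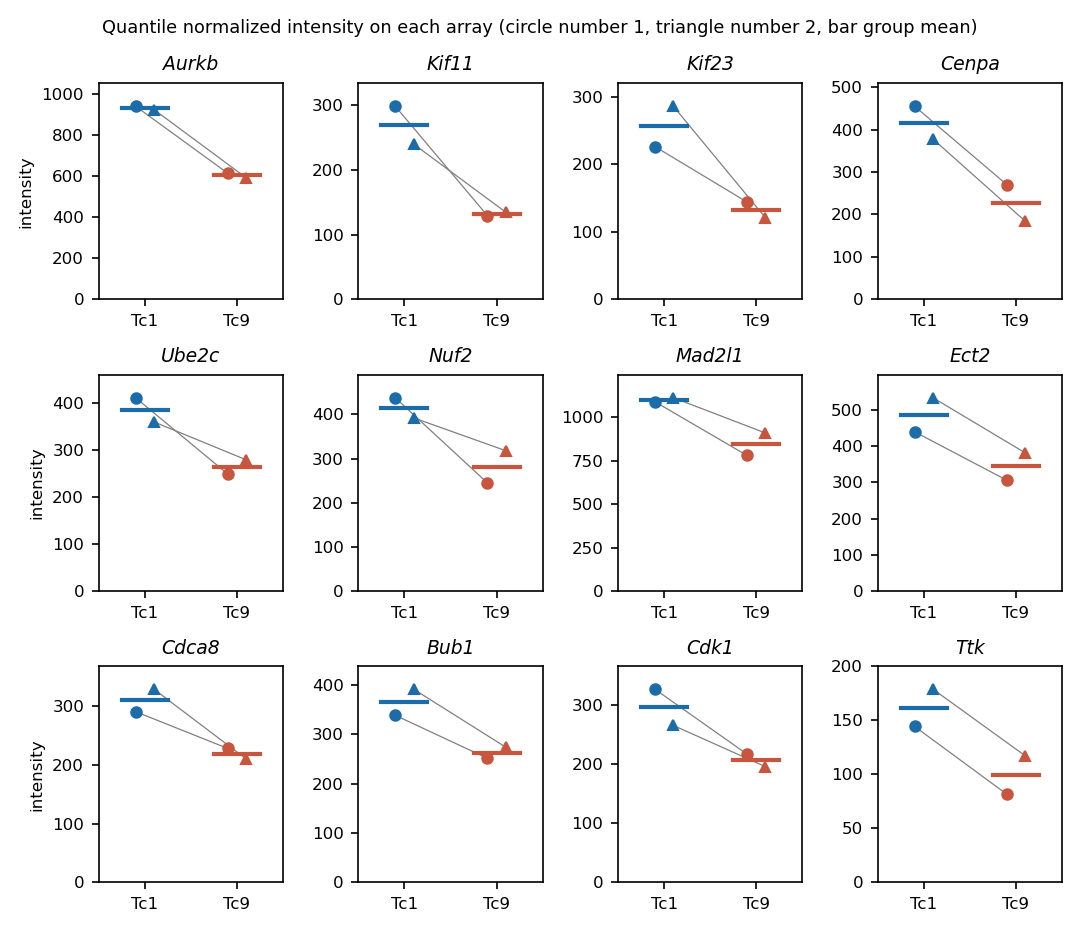
Quantile normalized intensity of the 12 members with the smallest limma p on each array, with circles for arrays numbered 1, triangles for those numbered 2, grey lines joining arrays of a number and bars for the group means. In all 12 both Tc9 points lie below both Tc1 points, which follows largely from choosing them by p on these same arrays. Over all 39 members this held for 25.

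Like genes at large, the members also differed between the array numbers. For 27 of the 39 (69.2%, against 74.4% of all genes) the array numbered 2 differed from the array numbered 1 in the same direction in Tc1 and in Tc9. The 2 differences correlated with r = 0.702 across the 39 genes, against 0.729 across all genes, as a description over the same 4 arrays. In 11 genes the mean difference between the numbers was larger than the difference between the groups, a count not taken over all genes. The following 3 were chosen as examples after their values were seen. Kif20a measured 209 and 325 in Tc1 and 146 and 233 in Tc9, so its groups overlapped although each Tc9 array was below its Tc1 partner. Ccna2 measured 737 and 526 in Tc1 and 573 and 412 in Tc9, with the same ordering and the opposite sign between the numbers. Pttg1 measured 525 and 317 in Tc1 and 504 and 324 in Tc9, differing by number and hardly by condition.

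Of the 13 members with overlapping groups, 7 were lower in Tc9 within both numbers. The change between the arrays numbered 1 and that between those numbered 2 differed by under 0.1 for 18 genes, with a median difference of 0.15 over the 39, and had opposite signs for 5. Changes reached -0.5 or beyond for 9 genes, 6 of them within both numbers. Of those 6, Cdc25c, Ttk, Kif11 and Kif23 had signals below the negative control level on some or all arrays. Over all 19505 genes the groups overlapped for 13828. The other counts in this paragraph are not given over all genes, so they cannot be set against a usual share.

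**Figure D4:**
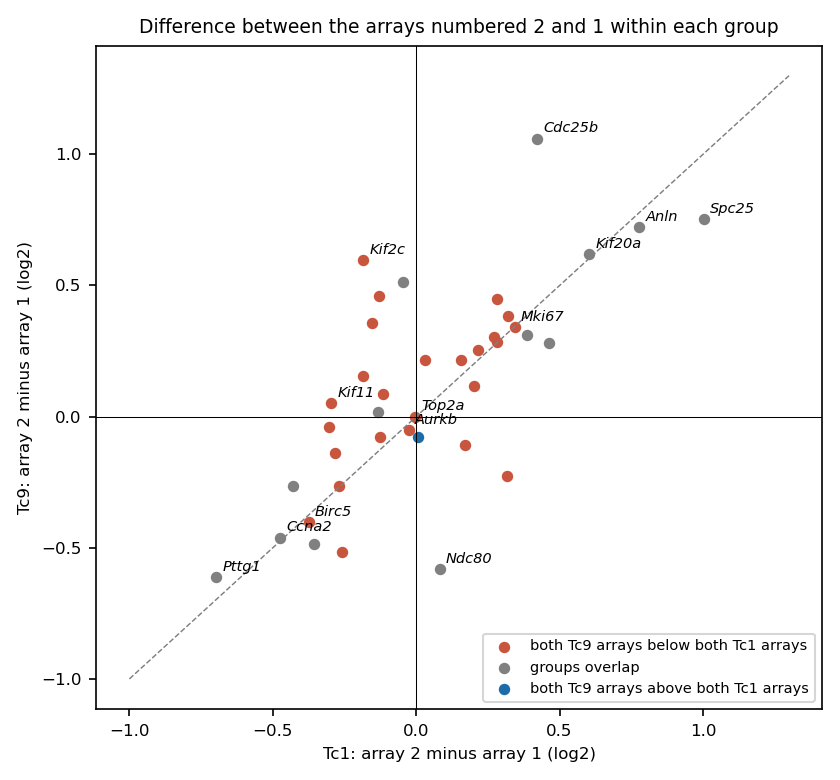
Log2 difference between the arrays numbered 2 and 1 in Tc1 (x axis) and in Tc9 (y axis) for the 39 members, with the line of equality dashed. Genes on the dashed line keep the same Tc9 to Tc1 difference in both numbers, and grey points, whose groups overlap, lie both far out along it (Spc25, Anln, Kif20a and Pttg1) and away from it (Ndc80).

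A wider list of 94 measured mitotic genes outside the 39 also had mostly negative changes. The change was negative for 79 of them, with a median of -0.30. By limma 0 passed, 17 were lower and 0 higher at an unadjusted p under 0.05, and with the block 40 passed as lower and 2 as higher. The shares over all genes under these rules are those given above for the 39 (2.34% lower and 2.94% higher unadjusted, 7.37% lower and 6.34% higher with the block). They apply to the 2 lists that follow as well, but those lists are brighter. Of 44 DNA replication genes 42, and of 23 regulators 21, lay above the negative control level on all 4 arrays. Among all genes that bright, 4.2% were lower unadjusted and 15.9% passed as lower with the block. Without the Tc9 array numbered 2, 1 of the 94 passed as lower. The smallest p was that of Trip13, the ATPase that disassembles the checkpoint complex, at 852 and 777 in Tc1 and 534 and 465 in Tc9 (-0.69; limma adjusted p = 0.207, with the block 1.10e-13). Next were Melk, a kinase of dividing cells, at -0.75, and Cenpn, a reader of centromeric nucleosomes, at -0.52. Both Tc9 signals of Melk, and neither Tc1 signal, lay below the negative control level. Of the 94 genes, 46 lay above that level on all 4 arrays and 28 on none.

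Of 44 DNA replication genes, which act earlier in the cycle, 37 had a negative change. Their median, -0.21, was about midway between those of all genes and of the 39, and the difference between the lists was not tested. By limma 0 passed, 6 were lower and 0 higher at an unadjusted p under 0.05, and with the block 18 passed as lower and 1 as higher. They were led by Rrm2, a subunit of ribonucleotide reductase (-0.53), Orc6 (-0.50) and Orc1 (-0.49), both of the origin recognition complex.

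Genes of a list of regulators of mitotic transcription, direct or indirect, had changes of both signs. Of 23 measured, 15 had a negative change (median -0.24), 0 passed by limma, 2 were lower and 1 higher at an unadjusted p under 0.05, and with the block 9 passed as lower and 3 as higher. The 0 that passed as lower became 2 without the Tc1 array numbered 1, 1 without the Tc9 array numbered 1 and 3 without the Tc9 array numbered 2. Cdkn1a, the p21 inhibitor of cyclin-dependent kinases, measured 1738 and 1916 in Tc1 and 1062 and 1019 in Tc9, a change of -0.80 ± 0.13 (limma adjusted p = 0.0584, with the block 2.69e-31). Rbl2, the p130 pocket protein of the DREAM complex, measured 288 and 324 in Tc1 and 418 and 408 in Tc9, a change of 0.42 (limma adjusted p = 0.884, with the block 0.00133). E2f3, an activating E2F, had a change of -0.45. Foxm1, a transcription factor of late cell cycle genes, is not analysed here.

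**Figure D5:**
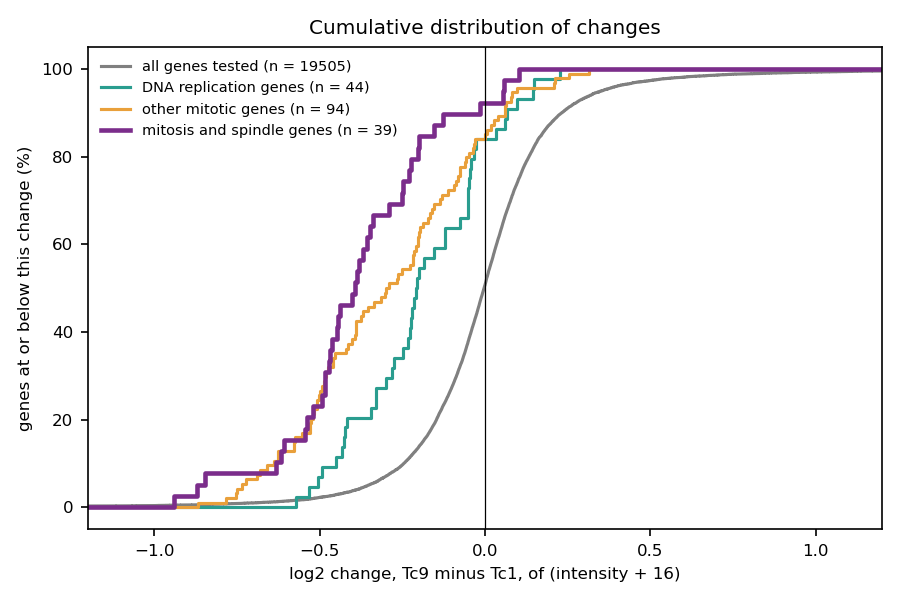
Share of genes (y axis, percent) at or below each log2 change (x axis) for the 39 mitosis and spindle genes, 94 other mitotic genes, 44 DNA replication genes and all 19505 genes. The curve of the 39 lies furthest left over most of its length, with a median of -0.39 against -0.0027 for all genes.

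The median change was -0.40 over the 24 members with TTTGAA in a promoter window and -0.36 over the others with a window, a difference that was not tested. Among all tested genes it was -0.0057 with TTTGAA and -0.0022 without. For the other mitotic genes it was -0.39 with and -0.25 without. For the DNA replication genes, of which only 5 held TTTGAA, it was -0.33 with and -0.21 without. These differences were not tested either. The stretches printed for Kif11, Ube2c and Cdk1 belong to genes with changes of -0.94, -0.52 and -0.48, and those of Cdc20 and Espl1 to genes with changes of -0.20 each.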

How the data were processed

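Per the labels, RNA was labelled by the Affymetrix protocol and hybridised to 4 arrays. The authors deposited an intensity per probe set (28846), taken as linear from its range, and no source used here gives their software, background correction or scaling. The 6640 controls were left out. Of 22206 others, 19572 had a single annotated symbol, 0 had several and 2634 had none. The brightest probe set stood for each of the 55 genes with several. After quantile normalization, log2(intensity + 16) was fitted with limma 3.58.1 in R 4.3.3 (eBayes with intensity trend, 2 residual and 5.09 prior degrees of freedom) over all 19505 genes, with Benjamini-Hochberg adjustment. Intervals are for single genes, unadjusted. The fit was tested on simulated data. The number of arrays limits the precision.

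Members, lists and naming rule were chosen with earlier results of these data known. Every array's value is given for the 16 members with the smallest p, the first of each role, those with a positive change, and Cdk1, Aurka, Aurkb, Plk1, Top2a and Mki67, and other lists are named by their 3 smallest p. Alternatives were the normalization, pseudocount (1 or 64), variance model, dim-gene filters, mean of probe sets, array number as a block, and leaving out each array.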

Additional observations from a re-analysis of the deposited data

How the results depend on the processing

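No mitosis and spindle gene passed in any setting run without the block, except Cenpa without the Tc9 array numbered 1, so that leaving out 1 array gave between 0 and 1 lower. With the replicate block 23 passed, and with 2 settings chosen after seeing the data 24 (block on deposited values) and 20 (block without the intensity trend). The number in the titles is not shown to pair the samples. Deviations from the group means correlated between arrays of a number with r = 0.729 across genes. The median change of the 39 kept its sign in all settings and went to -0.32 with a pseudocount of 64, and from -0.32 to -0.42 with 1 array left out. Over all genes, 35 lower and 75 higher became 3 and 13 on deposited values, 19 and 37 without the intensity trend, 29 and 48 with median centring, 1438 and 1236 with the block (1542 and 1271 as deposited, 666 and 760 without the trend), and 55 to 124 lower and 120 to 167 higher with 1 array left out. The prior degrees of freedom were 5.09 in the main fit. They were infinite on deposited values, with the block (9.01 without the trend) and with each array left out. The causes of these differences in counts were not tested.

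The sign turned for Bub3 with median centring (-0.0002). With 1 array left out it turned for 6 genes, whose changes then ran from -0.008 to 0.125 for Ccnb2, from -0.754 to 0.306 for Cdc25b, from -0.142 to 0.345 for Aurka, from -0.383 to 0.130 for Cenpf, from -0.858 to 0.145 for Spc25 and from -0.364 to 0.334 for Pttg1. Signals near the negative controls limit what can be said of the dim genes among them.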
